A study of Mus musculus with 9 samples.

Results

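The 9 genes described here carry out or control sodium and water transport in the distal nephron and collecting duct of the kidney. They are Scnn1a, Scnn1b and Scnn1g (the subunits of the epithelial sodium channel), Nr3c2 (the mineralocorticoid receptor), Hsd11b2 (the enzyme that protects this receptor from glucocorticoids), Atp1b1 (a sodium pump subunit), Aqp2 and Aqp3 (water channels) and Avpr2 (the vasopressin receptor of the duct). They were chosen by name, and all 9 were found among the 57010 genes of the count table. The RNA came from primary cultures grown out of digested whole kidneys of wild-type mice, so a culture may hold many cell types of the kidney. The cells were left for 6 h with PBS, with 20 ng/mL TNF, or with 20 ng/mL TNF and 1 µM ACHP, in 3 libraries per group. ACHP blocks NF-kB signalling, per the study's design text. No group had ACHP alone. The study asked how VCAM-1 is induced. The labels do not say whether the 3 libraries of a group came from separate mice or cultures, so the p-values measure only the spread between these libraries, which may be technical.

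In the intact kidney, aldosterone binds the mineralocorticoid receptor in principal cells of the collecting duct and raises sodium uptake through the epithelial sodium channel on the side of the lumen. The sodium pump on the opposite side then moves the sodium toward the blood. Vasopressin acts on its receptor in the same cells, raises cyclic AMP and brings aquaporin 2 to the luminal membrane, and aquaporin 3 lets the water leave on the other side. The enzyme encoded by Hsd11b2 inactivates glucocorticoids, which would otherwise occupy the mineralocorticoid receptor.

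The libraries held 14194295 to 20892176 counts, and 14747 genes had enough counts to be tested. Levels are given as CPM (a gene's share of its library's counts, scaled by TMM factors) and, where genes are compared with each other, as RPKM (the same per kilobase of exon). A gene is said to have risen or fallen where the adjusted p of edgeR's quasi-likelihood test was under 0.05. In this bulk RNA, fewer cells of a type and less RNA per cell cannot be told apart. PBS replicates 2 and 3 and the 3 TNF libraries held more transcripts of neurons than the rest. Over 26 neuron markers the sum was 144 and 116 CPM in those PBS libraries and between 64.8 and 94.9 CPM with TNF, against 30.0 CPM in PBS replicate 1 and between 26.5 and 27.5 CPM with TNF and ACHP. Macrophage markers summed to between 18.8 and 20.3 CPM in the libraries given both agents, against 41.8 to 45.9 CPM for PBS and 43.9 to 46.4 CPM for TNF alone.

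Against their markers, the cultures held some transcripts of principal cells and lacked others. Epithelial genes that principal cells share with other duct cells were high: Cldn4, a tight junction gene, had 906 ± 59.0 CPM (SD, n = 3) with PBS, and Tfcp2l1, a transcription factor of the duct, had 249 ± 5.25 CPM. Of 24 principal cell markers, 18 had enough counts to be tested. Aqp2, the marker that defines principal cells, had 0 counts in every library. The markers of intercalated cells were mostly low as well, with 14 of 18 below the filter, among them Foxi1 with 4 counts in all.

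Per unit of exon length, the genes fell into the same broad order in the 3 groups. With PBS, Atp1b1 stood at 171 ± 5.92 RPKM (SD, n = 3), Scnn1a at 10.8 ± 0.31, Hsd11b2 at 3.71 ± 0.16, Scnn1b at 1.92 ± 0.05, Scnn1g at 1.58 ± 0.33 and Nr3c2 at 1.05 ± 0.18. Each of these was separate from its neighbours in every library except for Scnn1b and Scnn1g, whose libraries overlapped in all 3 groups. The mean of Scnn1g was below that of Scnn1b with PBS and with TNF and ACHP, and above it with TNF. The transcript of the alpha subunit was thus the most abundant of the 3 channel subunits in every library, with Scnn1b at 13.9% to 18.8% of the Scnn1a level and Scnn1g at 11.2% to 18.3% per unit of length. Aqp3 came far lower, at 0.07 ± 0.07 RPKM with PBS, and Avpr2 and Aqp2 were at or near 0.

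**Figure D1:**
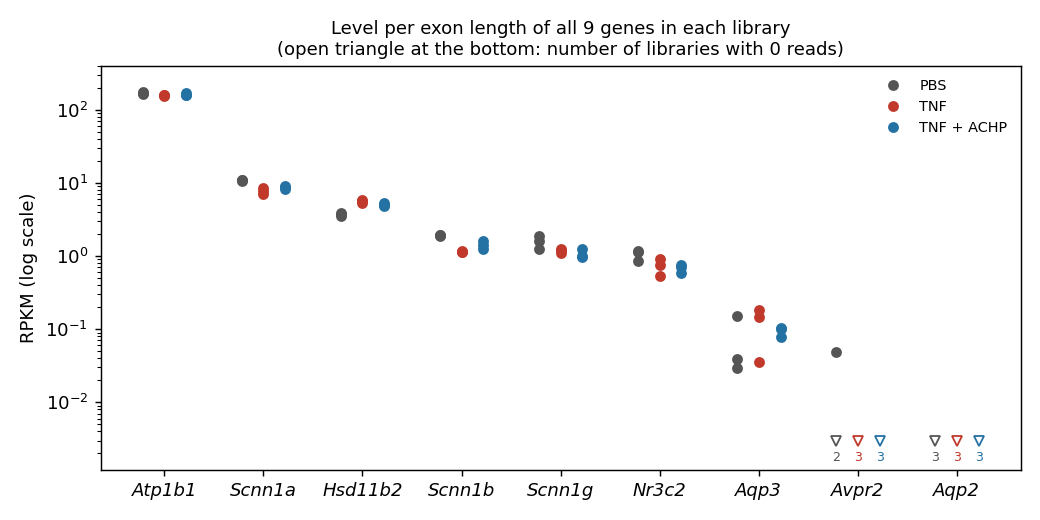
Level of the 9 genes in each of the 9 libraries, as RPKM on a log scale, by group; open triangles give the number of libraries with 0 reads. Atp1b1 sits above 100 RPKM, the sodium channel genes, Hsd11b2 and Nr3c2 lie between 0.52 and 11.1 RPKM, and Aqp3, Avpr2 and Aqp2 lie below 0.19.

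RefSeq promoter entries matched 7 of the 9 genes. Scnn1a and Hsd11b2 had no entry. Shown are the 250 bases before the start site on GRCm38.p6, a build older than that of the counts, for the beta and gamma subunits, which lie on the same chromosome, for the receptor that binds aldosterone, and for Aqp2, the gene without counts, so that genes whose levels are compared below can be set against their sequence. They are Scnn1b (chr7:121864788-121865037, plus strand), Scnn1g (chr7:121734229-121734478, plus strand), Nr3c2 (chr8:76902080-76902329, plus strand) and Aqp2 (chr15:99578806-99579055, plus strand). Capitals mark matches to the motifs searched, on either strand.
Scnn1b: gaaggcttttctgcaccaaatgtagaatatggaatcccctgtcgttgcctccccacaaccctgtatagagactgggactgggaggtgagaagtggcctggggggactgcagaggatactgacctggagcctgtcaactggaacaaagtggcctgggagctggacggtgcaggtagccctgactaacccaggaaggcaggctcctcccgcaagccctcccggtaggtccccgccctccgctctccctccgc
Scnn1g: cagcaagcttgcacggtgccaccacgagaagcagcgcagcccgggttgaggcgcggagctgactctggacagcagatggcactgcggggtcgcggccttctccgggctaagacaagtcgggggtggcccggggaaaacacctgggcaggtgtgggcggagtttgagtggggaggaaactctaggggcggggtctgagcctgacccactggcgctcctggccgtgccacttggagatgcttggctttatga
Nr3c2: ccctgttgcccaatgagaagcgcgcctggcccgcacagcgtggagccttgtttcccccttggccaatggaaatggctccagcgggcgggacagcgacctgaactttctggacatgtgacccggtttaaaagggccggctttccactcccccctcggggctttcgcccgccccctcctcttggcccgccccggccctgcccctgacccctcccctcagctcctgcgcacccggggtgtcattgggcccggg
Aqp2: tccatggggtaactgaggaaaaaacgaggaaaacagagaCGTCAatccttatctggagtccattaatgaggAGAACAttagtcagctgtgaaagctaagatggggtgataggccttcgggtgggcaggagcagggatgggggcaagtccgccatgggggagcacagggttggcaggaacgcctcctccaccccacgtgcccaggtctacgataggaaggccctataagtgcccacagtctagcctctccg

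The motifs were the NF-kB consensus, TGTTCT (bound by steroid receptors), TGACG (part of the cyclic AMP response element) and GGAAGT (an ETS core, the family of Elf5). None overlapped another in these promoters. Over 27025 promoters of the same length they were found in 3.8%, 16.2%, 17.6% and 20.0%. Of the 4 motifs, none was found in the windows of Scnn1b, Scnn1g, Nr3c2, Aqp3 or Atp1b1. Aqp2 held a match to TGACG on the minus strand from -211 to -207 and a match to TGTTCT on the minus strand from -179 to -174, printed above as CGTCA and AGAACA. Avpr2 held TGTTCT at 2 places, from -59 to -54 and from -50 to -45. A match describes letters and shows no binding.

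Of the sodium channel genes, Scnn1a and Scnn1b fell with TNF, while Scnn1g had a lower mean without passing the test. Scnn1a (ENSMUSG00000030340, chromosome 6, 125297622 to 125321906, GRCm39) encodes the alpha subunit, which the channel needs to conduct. Its counts were 612, 820 and 826 in the PBS libraries, 523, 473 and 547 in those given TNF and 548, 772 and 580 in those given both agents. In CPM these were 43.2, 45.7 and 44.7 in the PBS libraries, 28.7, 31.5 and 35.0 in those given TNF and 33.6, 36.8 and 37.0 in those given both agents. Every PBS library lay above every treated library, and the libraries with ACHP overlapped those with TNF alone. Scnn1a fell by 29.0% with TNF (log2 fold change -0.49, SE 0.07, edgeR adjusted p = 8.7e-05). With both agents together it was also below PBS (log2 fold change -0.32, SE 0.07, edgeR adjusted p = 0.0056). Over 21 alternatives this difference ran from -0.34 to -0.25. The call was lost in 4 of them, those with a term or covariate for neural transcripts and with PBS replicate 1 as the only PBS library.

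Scnn1b (ENSMUSG00000030873, chromosome 7, 121464261 to 121517737, GRCm39) encodes the beta subunit, which helps carry the channel to the membrane. Its counts were 73, 88 and 95 in the PBS libraries, 55, 45 and 48 in those given TNF and 61, 68 and 66 in those given both agents. As CPM the PBS libraries had 5.15, 4.90 and 5.14, those with TNF had 3.02, 3.00 and 3.07, and those given both agents had 3.74, 3.24 and 4.21. The 3 groups did not overlap, with PBS highest and TNF lowest. Scnn1b fell by 40.1% with TNF (log2 fold change -0.74, SE 0.16, edgeR adjusted p = 0.0084), the largest of the 6 fold changes for TNF against PBS. For both agents the difference from PBS was -0.45 (SE 0.16, edgeR adjusted p = 0.11) and that from TNF was 0.29 (95% interval -0.06 to 0.64, edgeR adjusted p = 0.36), so neither passed the test.

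Scnn1g (ENSMUSG00000000216, chromosome 7, 121333702 to 121367698, GRCm39) encodes the gamma subunit, which proteases cut to activate the channel, and lies on the same strand of the same chromosome as Scnn1b. Its counts were 53, 86 and 105 in the PBS libraries, 69, 55 and 52 in those given TNF and 47, 62 and 58 in those given both agents. PBS replicate 1, at 3.74 CPM, lay among the TNF libraries (3.33 to 3.79 CPM), whereas PBS replicates 2 and 3 had 4.79 and 5.68 CPM. The log2 fold change with TNF was -0.41 (SE 0.18, edgeR adjusted p = 0.22), and it was -0.25 without PBS replicate 3 (edgeR adjusted p = 0.60) and -0.05 with PBS replicate 1 as the only PBS library (edgeR adjusted p = 0.96). Against PBS, TNF and ACHP gave -0.59 (SE 0.18, edgeR adjusted p = 0.062), a difference that passed the test without PBS replicate 1 (-0.73, edgeR adjusted p = 0.015) and when low genes were kept in the fit (edgeR adjusted p = 0.046). It was -0.24 both with PBS replicate 1 as the only PBS library and with the term for neural libraries, which give the same contrast here.

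**Figure D2:**
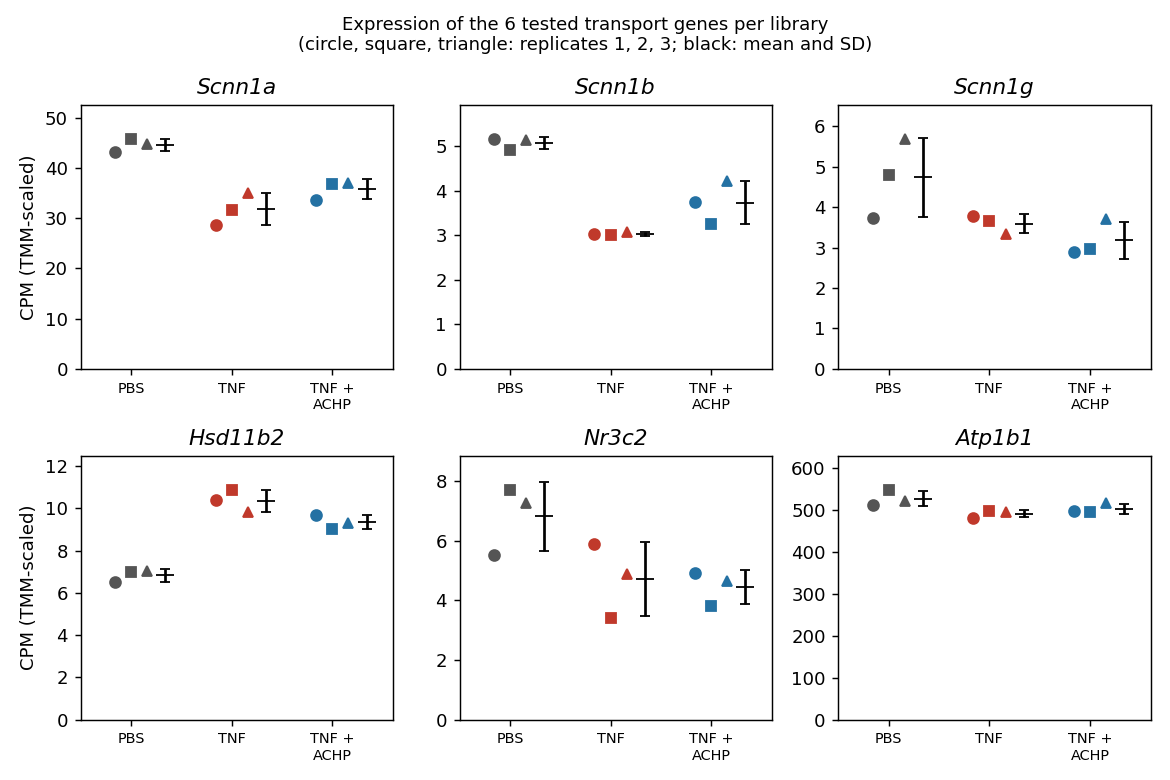
CPM of the 6 genes with enough counts to be tested, each library as a point (circle, square and triangle for replicates 1, 2 and 3) with the group mean and SD in black; every axis starts at 0. PBS stands above both treated groups for Scnn1a and Scnn1b and below both for Hsd11b2, while PBS replicate 1 lies low for Scnn1g and Nr3c2.

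Of the genes that decide which steroids these cells respond to, Hsd11b2 rose with TNF, and Nr3c2 had a lower mean with TNF that did not pass the test. Hsd11b2 (ENSMUSG00000031891, chromosome 8, 106245387 to 106250620, GRCm39) was counted 92, 125 and 130 times in the PBS libraries, 189, 163 and 153 in those given TNF and 158, 189 and 146 in those given both agents. In CPM these were 6.49, 6.97 and 7.04 in the PBS libraries, 10.4, 10.9 and 9.80 in those given TNF and 9.69, 9.02 and 9.31 in those given both agents. The groups did not overlap, with TNF highest and PBS lowest. Hsd11b2 rose with TNF (1.51-fold, log2 fold change 0.59, SE 0.10, edgeR adjusted p = 0.0010) and was above PBS with TNF and ACHP as well (1.36-fold, log2 fold change 0.44, SE 0.10, edgeR adjusted p = 0.012). With DESeq2 the latter difference was 0.45 and did not pass (DESeq2 adjusted p = 0.088).

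Nr3c2 (ENSMUSG00000031618, chromosome 8, 77626070 to 77971641, GRCm39) was counted 78, 138 and 134 times in the PBS libraries, 107, 51 and 76 in those given TNF and 80, 80 and 73 in those given both agents. Its libraries spread widely within a group: 5.50, 7.69 and 7.25 CPM in the PBS libraries, 5.88, 3.40 and 4.87 in those given TNF and 4.90, 3.82 and 4.65 in those given both agents. PBS replicate 1 was lower than TNF replicate 1, so these groups overlapped, whereas PBS and the libraries with ACHP did not. The log2 fold change with TNF was -0.53 (SE 0.18, edgeR adjusted p = 0.094). It passed the test without PBS replicate 1 (-0.65, edgeR adjusted p = 0.031) and when low genes were kept in the fit (edgeR adjusted p = 0.033). The term for neural libraries also gave -0.65 (edgeR adjusted p = 0.031). For TNF against PBS that term likewise compares TNF with PBS replicates 2 and 3 only, so it is no separate check. The change was -0.35 without TNF replicate 2 (edgeR adjusted p = 0.37) and -0.21 with PBS replicate 1 as the only PBS library. Nr3c2 was lower in the libraries given both agents than in PBS and fell by 0.63 on the log2 scale (SE 0.18, edgeR adjusted p = 0.041). The call was lost with DESeq2 (-0.63, DESeq2 adjusted p = 0.099) and without PBS replicate 2 (-0.54), PBS replicate 3 (-0.59), TNF replicate 3 (-0.64), or replicates 2 (-0.52) or 3 (-0.67) of TNF with ACHP, at edgeR adjusted p from 0.063 to 0.18.

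Atp1b1 (ENSMUSG00000026576, chromosome 1, 164264678 to 164285924, GRCm39), which encodes the beta subunit that brings the sodium pump to the membrane, had the most counts by far and the smallest differences. It had 511, 547 and 521 CPM in the PBS libraries, 480.1, 497 and 495 in those given TNF and 496, 494 and 515 in those given both agents. The TNF libraries lay just below the PBS libraries without overlap, and those with ACHP overlapped both. The log2 fold change with TNF was -0.10 (95% interval -0.17 to -0.03, edgeR adjusted p = 0.092). DESeq2 called this small difference (-0.10, DESeq2 adjusted p = 0.040). For both agents the difference from PBS had a 95% interval of -0.14 to 0.00. Of the exon length of Atp1b1, 18.7% is shared with Nme7, and reads in the shared part were not counted.

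Genes for water transport were too low to test. Aqp2 (ENSMUSG00000023013, chromosome 15, 99476936 to 99482428, GRCm39), the water channel that vasopressin controls, had 0 counts in all 9 libraries, which allows up to 3 counts over the series, or 0.020 CPM. This limit covers counting error only. Aqp3 (ENSMUSG00000028435, chromosome 4, 41092722 to 41098183, GRCm39), the water channel on the blood side of these cells, was counted 1, 5 and 1 times in the PBS libraries, 6, 4 and 1 in those given TNF and 3, 3 and 3 in those given both agents. These overlap fully, and a difference between groups was not detectable at this depth. Avpr2 (ENSMUSG00000031390, chromosome X, 72935708 to 72939108, GRCm39), the vasopressin receptor, had 2 counts, both in PBS replicate 1. Of its exon length 81.3% is shared with Arhgap4, where reads were not counted for either gene, so its 2 counts come from the remainder and do not show how low the receptor is.

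Of the 6 genes tested, 1 rose (Hsd11b2) and 2 fell (Scnn1a and Scnn1b) with TNF, where 3.31% of all genes tested rose and 2.91% fell. For both agents against PBS, 1 rose (Hsd11b2) and 2 fell (Scnn1a and Nr3c2), where 2.18% of all genes rose and 3.87% fell. Between TNF with ACHP and TNF alone, edgeR and DESeq2 each called 0 of the 6, where edgeR called 2.71% of all genes higher and 4.46% lower. In that comparison 1 gene, Scnn1a, had an unadjusted p under 0.05 (0.18, 95% interval 0.03 to 0.32, edgeR adjusted p = 0.13), which moved to 0.25 without TNF replicate 3 (edgeR adjusted p = 0.047, a call) and to 0.10 without TNF replicate 1 (edgeR adjusted p = 0.52). The interval for Hsd11b2 was -0.35 to 0.05, for Nr3c2 -0.50 to 0.29, for Scnn1g -0.58 to 0.21 and for Atp1b1 -0.04 to 0.10, so these data do not show whether ACHP changed the response of these genes. The median log2 fold change of the 6 was -0.45 for TNF against PBS, -0.04 for TNF with ACHP against TNF, and -0.38 for TNF with ACHP against PBS, beside -0.0020, 0.0034 and 0.0050 over all genes. The test of any difference among the 3 groups called Scnn1a, Scnn1b, Hsd11b2 and Nr3c2, or 4 of 6, where it called 11.4% of all genes. The comparisons share libraries and are not independent of each other.

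**Figure D3:**
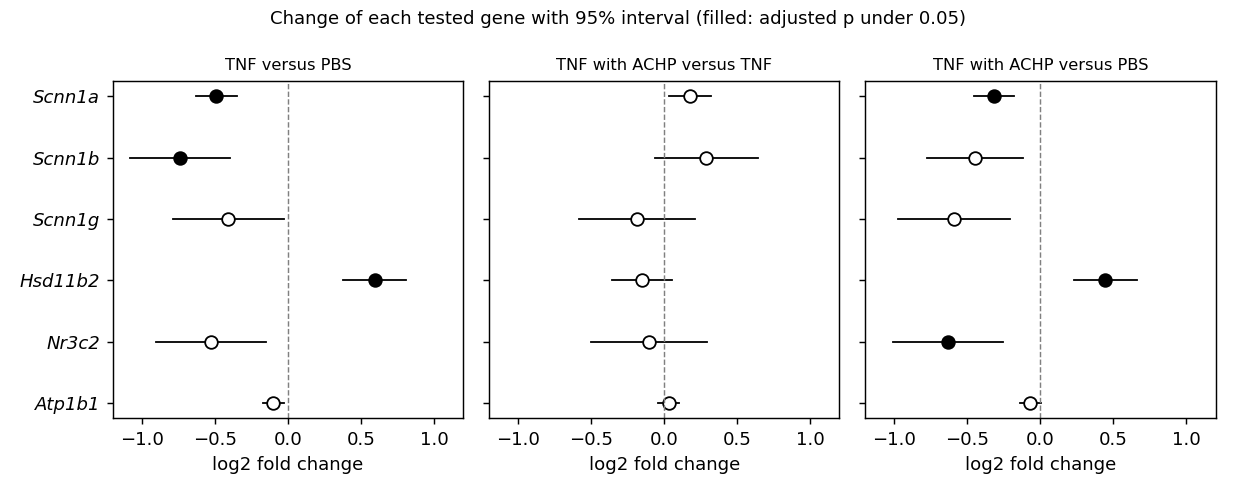
Log2 fold change of the 6 tested genes with its 95% interval in the 3 comparisons, filled where the edgeR adjusted p was under 0.05. With TNF, Scnn1a (-0.49) and Scnn1b (-0.74) lie to the left and Hsd11b2 (0.59) to the right; between TNF with ACHP and TNF no point is filled.

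The libraries with neural transcripts are not spread evenly over the groups, so the values were set side by side within them. Among libraries with these transcripts, that is, without PBS replicate 1, TNF gave log2 fold changes of -0.52 for Scnn1a (edgeR adjusted p = 9.1e-05), -0.73 for Scnn1b (edgeR adjusted p = 0.019) and 0.56 for Hsd11b2 (edgeR adjusted p = 0.0049), close to those of all libraries. Among libraries with few of them, PBS replicate 1 against TNF with ACHP, the values were -0.27 for Scnn1a (edgeR adjusted p = 0.18), 0.52 for Hsd11b2 (edgeR adjusted p = 0.14) and -0.32 for Nr3c2 (edgeR adjusted p = 0.69), and 0 of the 6 genes were called. That contrast has 1 PBS library, which is taken to vary as the replicated groups do. The term for neural libraries repeats these contrasts and is no separate check. For TNF against PBS it compares TNF with PBS replicates 2 and 3, and for both agents against PBS it compares them with PBS replicate 1. With all libraries and the term for neural libraries, both agents against PBS gave -0.27 for Scnn1a (SE 0.10, edgeR adjusted p = 0.24), 0.52 for Hsd11b2 (SE 0.17, edgeR adjusted p = 0.17) and -0.32 for Nr3c2 (SE 0.25, edgeR adjusted p = 0.71). The standard errors were larger than without the term, at which they were 0.07, 0.10 and 0.18, and the size of the change was smaller for Scnn1a and Nr3c2 and larger for Hsd11b2. With PBS replicate 1 as the only PBS library, TNF gave -0.45 for Scnn1a (edgeR adjusted p = 0.0057), -0.76 for Scnn1b (edgeR adjusted p = 0.11) and 0.67 for Hsd11b2 (edgeR adjusted p = 0.021). For TNF with ACHP against TNF, every library of the first group had few neural transcripts and every library of the second had many. The inhibitor and these transcripts therefore cannot be told apart. In that comparison the term for neural libraries is estimated only from PBS replicate 1 against PBS replicates 2 and 3. A call kept or lost with the term there cannot separate them either.

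**Figure D4:**
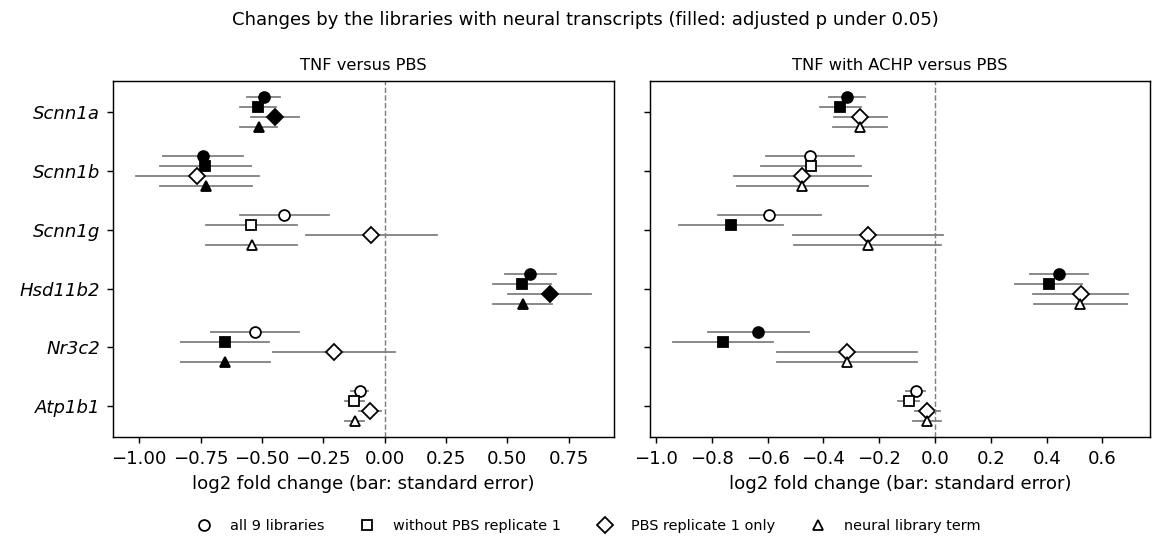
Log2 fold change with its standard error for the 6 tested genes, over all 9 libraries, without PBS replicate 1, with PBS replicate 1 as the only PBS library, and with a term for the 5 libraries with most neural transcripts. The TNF changes of Scnn1a, Scnn1b and Hsd11b2 stay in place, while Scnn1g and Nr3c2 shift toward 0 where PBS replicate 1 stands alone. The term gives the same contrast as leaving out PBS replicate 1 for TNF, and as PBS replicate 1 alone for both agents.

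Ratios between the genes were taken within each library. Hsd11b2 relative to Nr3c2, in counts, was 1.18, 0.906 and 0.970 in the PBS libraries, 1.76, 3.17 and 2.01 in those given TNF and 1.97, 2.35 and 1.99 in those given both agents. Every treated library lay above every PBS library, and the mean log2 ratio was 0.02 ± 0.20 for PBS, 1.16 ± 0.45 for TNF and 1.07 ± 0.14 for both agents (SD, n = 3, two-sided exact permutation p = 0.10 for each against PBS, the smallest that 3 against 3 libraries allow). Scnn1b relative to Scnn1a was lower with TNF in every library, at a mean log2 ratio of -3.37 ± 0.13 against -3.13 ± 0.08 with PBS (SD, n = 3, exact permutation p = 0.10). Scnn1g relative to Scnn1b was lower with ACHP than with TNF alone in every library, at -0.23 ± 0.13 against 0.24 ± 0.11 (SD, n = 3, exact permutation p = 0.10). Adjusted over the 12 ratio tests the smallest p was 0.30, so no ratio passed the correction in this design. The ratio of Aqp2 to Aqp3 was not computed because Aqp2 had no counts.

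Among regulators of the sodium channel, 24 of 25 genes were tested. With TNF 0 rose and 4 fell, beside 3.31% and 2.91% of all genes, with a median log2 fold change of -0.0044 over the list beside -0.0020 over all genes. These were Wnk4, a kinase of distal salt transport (-0.53), Tmprss2, a membrane protease (-0.42), Cnksr3, a scaffold that helps aldosterone activate the channel (-0.39), and Nedd4l, the ligase that removes the channel from the membrane (-0.15, edgeR adjusted p = 0.049). Wnk4 was not called with DESeq2 (-0.53, DESeq2 adjusted p = 0.054) or without PBS replicate 2 (-0.53) or 3 (-0.42) or any single TNF library (-0.58 to -0.51). The count was 2 without PBS replicate 2, TNF replicate 1 or TNF replicate 2, or with PBS replicate 1 as the only PBS library. Cnksr3 had 27.9 ± 1.24 CPM in the PBS libraries, 21.2 ± 1.40 in those given TNF and 27.3 ± 0.83 in those given both agents (SD, n = 3). It was higher with both agents than with TNF alone (0.36, edgeR adjusted p = 0.0021), a call lost with the term for neural libraries (0.26, edgeR adjusted p = 0.42). Tmprss2 was below PBS with both agents (-0.40, edgeR adjusted p = 0.00057). Sgk1, the kinase that aldosterone induces, had 61.5 ± 3.18, 63.1 ± 2.03 and 62.1 ± 2.89 CPM in the 3 groups.

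Around the mineralocorticoid receptor, 17 of 18 genes of steroid signalling were tested. With TNF 2 rose, Hsd11b2 itself and Fkbp5, a chaperone induced by glucocorticoids (0.28), and 0 fell, beside 3.31% and 2.91% of all genes. Without PBS replicate 2, PBS replicate 3, TNF replicate 1 or TNF replicate 2, Hsd11b2 was the only 1 left, and Fkbp5 was at 0.23 to 0.28. Without PBS replicate 1, 2 rose and 2 fell, Nr3c2 among the latter. For both agents against PBS, the 1 that rose and the 1 that fell were Hsd11b2 and Nr3c2. Nr3c1, the glucocorticoid receptor, stood at 83.1 ± 0.80, 87.4 ± 3.82 and 78.3 ± 1.81 CPM (SD, n = 3). It was the 1 gene of the list called between both agents and TNF alone (-0.16, edgeR adjusted p = 0.032). The call was lost with DESeq2 (DESeq2 adjusted p = 0.086), with the term for neural libraries (-0.18, edgeR adjusted p = 0.38) and without TNF replicate 1 or 3 or replicate 1 or 3 of both agents (-0.15 to -0.14).

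Atp1b2, another beta subunit of the pump, which glia express, had 129 counts over the PBS libraries, 85 over those given TNF and 9 over those given both agents. It was lower with both agents than with PBS (log2 fold change -3.81, edgeR adjusted p = 0.0020) and than with TNF (-3.31, edgeR adjusted p = 0.0076), and differed by -1.04 from PBS replicate 1 alone, without a call. With the term for neural libraries it differed by -0.06 from TNF, also without a call. Of 14 aquaporins and urea transporters, 4 were tested. Aqp1, the water channel of the proximal tubule, fell with TNF (-0.99, edgeR adjusted p = 0.027) and lost the call without PBS replicate 2 or 3 or any single TNF library (-1.10 to -0.82). Aqp4, a water channel of principal cells and of astrocytes, had 3.70 ± 0.90 CPM in the PBS libraries, 3.21 ± 0.34 in those given TNF and 1.56 ± 0.63 in those given both agents (SD, n = 3). It was lower with both agents than with PBS (-1.28, edgeR adjusted p = 0.0063) and than with TNF (-1.06, edgeR adjusted p = 0.022). Both calls were lost with the term for neural libraries (-0.85 and -0.47), the one against PBS with PBS replicate 1 as the only PBS library (-0.85), and the one against TNF without TNF replicate 2 or 3 or replicate 2 or 3 of both agents (-1.06 to -0.77). In the vasopressin and cyclic AMP list 19 of 24 genes were tested and 1 rose with TNF, Pde4b, which breaks down cyclic AMP (0.39, edgeR adjusted p = 0.00053), a share near the 3.31% of all genes that rose. Without PBS replicate 1, 2 rose and 1 fell, and the count was also 2 without replicate 1 or 3 of the libraries given both agents. For both agents against TNF alone 3 rose, Crem (0.31), Ptger4 (0.31) and Prkaca (0.16), and 0 fell, beside 2.71% and 4.46% of all genes. Each of the 3 lost its call in 9 or 10 of 21 alternatives. For both agents against PBS 1 rose, Pde4b (0.22), and 2 fell, Ptger3 (-0.72) and Creb1 (-0.15), beside 2.18% and 3.87%. These calls were lost in 15 to 20 of 21 alternatives.

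Among principal cell markers, which include 7 of the 9 genes, 1 rose and 5 fell with TNF of 18 tested, beside 3.31% and 2.91% of all genes, with a median log2 fold change of -0.11. Without the genes described here the count was 0 higher and 3 lower. These were Elf5, a transcription factor of principal cells (-1.46, edgeR adjusted p = 3.2e-05), Cldn8, a claudin of the duct (-1.01, edgeR adjusted p = 0.0023), and Gata3 (-0.25, edgeR adjusted p = 0.038). Elf5 had 5.74 ± 0.40 CPM for PBS, 2.10 ± 0.24 for TNF and 2.86 ± 0.38 for both agents (SD, n = 3). Tfcp2l1 was at 249 ± 5.25, 249.5 ± 5.53 and 229 ± 0.65 CPM and was called lower with both agents than with TNF (-0.12, edgeR adjusted p = 0.032) and than with PBS (-0.12, edgeR adjusted p = 0.040). The keratin gene Krt7 was at 971 ± 31.9, 913 ± 21.3 and 944 ± 32.4 CPM. With PBS replicate 1 as the only PBS library 1 rose and 2 fell with TNF. Between both agents and TNF alone, 3 keratin genes rose, Krt19 (0.27), Krt18 (0.20) and Krt8 (0.17), and Aqp4, Npnt (-0.21) and Tfcp2l1 fell, beside 2.71% and 4.46% of all genes. With the term for neural libraries edgeR called 0 of the 18 in that comparison, with Krt19 at 0.26 (edgeR adjusted p = 0.094) and Npnt at -0.22 (edgeR adjusted p = 0.13).

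**Figure D5:**
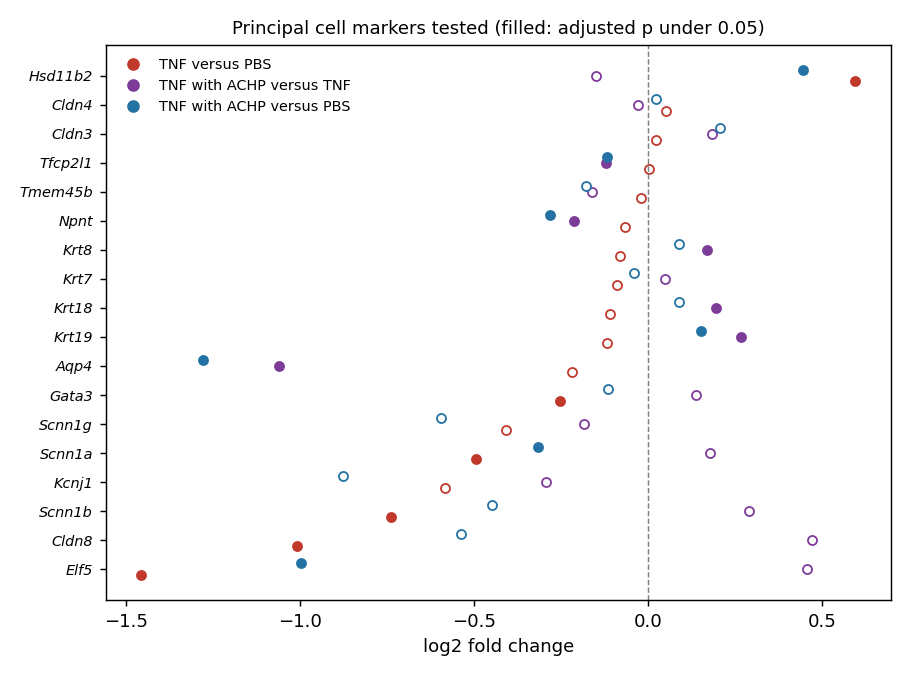
Log2 fold change of the 18 principal cell markers tested, in the 3 comparisons, filled where the edgeR adjusted p was under 0.05, ordered by the TNF change. Elf5 and Cldn8 lie at the low end of the TNF change and Hsd11b2 alone at the high end, and Krt8, Krt18 and Krt19 are filled at 0.17 to 0.27 for TNF with ACHP against TNF.

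The genes whose levels followed those of a called gene most closely over the 9 libraries were named from 10179 or 10180 genes with at least 5 CPM. These values describe libraries that share groups and depth and carry no test. For Scnn1a they were Wwc1 (Pearson r = 0.986), P3h2 (0.970) and Ank (0.967), and for Scnn1b they were Cnn1 (0.962), Ppp2r2c (0.961) and Camk2n1 (0.956). For Hsd11b2 they were Il1f6 (0.973), Mcm4 (0.970) and Micall2 (0.969). Nr3c2 had looser matches, Tgoln1 (0.951), Tmem219 (0.900) and Tex2 (0.895). Wwc1, for example, had 587 ± 2.33, 510.2 ± 21.2 and 536 ± 12.8 CPM for PBS, TNF and both agents (SD, n = 3), and Il1f6 had 4.16 ± 0.29, 6.77 ± 0.55 and 5.86 ± 0.68 CPM.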

How the data were processed

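RNA from 9 libraries in 3 groups was measured, and groups and replicate numbers were taken from the sample titles. The deposited values are raw counts per Ensembl gene, made by featureCounts 2.0.1 with its defaults from the Ensembl 109 annotation of GRCm39, per the file headers, whereas the submitters' processing notes name STAR, featureCounts, DESeq2 and mm10. At these defaults, reads that fit several places or several genes are not counted, and strand is not used. Symbols were matched for 52029 of 57010 identifiers, which hold 99.6% of the counts. Libraries of a group differed beyond sampling noise (chi-square per degree of freedom 1.81 to 6).

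Counts were analysed with edgeR 4.0.16 in R 4.3.3: filterByExpr, TMM factors (0.993 to 1.01), a quasi-likelihood fit of group means over all 9 libraries (coefficient of variation 4.01%), and Benjamini-Hochberg adjustment over 14747 genes. CPM and RPKM were computed from the counts, with exon lengths of the count table. Ratios had 0.5 counts added and were tested by exact permutation. Similar genes were ranked on log2 CPM after adding 0.25. The fit was tested on simulated data. DESeq2 1.42.0, other scaling, filters, thresholds, terms for neural transcripts, a replicate block and leaving out each library were alternatives. Fits with a covariate of 26 of the 28 neuron markers, and with only replicate 1 kept of PBS, were added after seeing the data. The genes named are the 9 genes, at most 3 called genes with the largest change per list and comparison, and the 3 most similar genes of each called gene. Levels of Cldn4, Foxi1, Sgk1, Krt7 and Tfcp2l1, and Nedd4l, Gata3, Krt8 and Krt18, were named after their values were seen. The 9 genes and the 18 gene lists (307 genes, 225 tested) were chosen with earlier results of these data known. Some genes of the lists are not reported here.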

Additional observations from a re-analysis of the deposited data

How the results depend on the processing

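Of the 21 alternatives, the stricter threshold reuses the main fit. For TNF against PBS the term for neural libraries repeats the contrast without PBS replicate 1. The TNF changes of Scnn1a (-0.57 to -0.42), Scnn1b (-0.76 to -0.72) and Hsd11b2 (0.42 to 0.67) kept their direction under all 21. With the sum of all 28 neuron markers as a covariate, they lost their calls at edgeR adjusted p = 0.086, 0.48 and 0.63, and Scnn1b also lost it with PBS replicate 1 as the only PBS library. With a covariate of 26 of the 28 markers, added after seeing the data, the TNF changes of these genes kept their calls. They were -0.49 for Scnn1a (edgeR adjusted p = 4.3e-05), -0.74 for Scnn1b (edgeR adjusted p = 0.0081) and 0.60 for Hsd11b2 (edgeR adjusted p = 0.00096). Leaving out libraries gave 3 to 4 of the 6 genes called for TNF against PBS, 0 to 1 for TNF with ACHP against TNF and 2 to 4 for TNF with ACHP against PBS. The gene counts over all genes were then 468 to 957, 541 to 1327 and 494 to 988. With the covariate of 28 markers 163, 9 and 132 genes were called (0 of the 6 genes against PBS with either treatment). With the covariate of 26 markers, 959 genes were called for TNF against PBS (3 of the 6). With the term for neural libraries, 143 genes were called for TNF with ACHP against TNF and 162 against PBS (0 of the 6, with larger standard errors), and with a covariate of 26 neuron markers 259 and 123 (0 of the 6). With PBS replicate 1 as the only PBS library, 418 genes were called for TNF and 237 for TNF with ACHP against PBS (0 of the 6). At an adjusted p under 0.01 the counts were 442, 468 and 427, with 1 of the 6 genes for TNF with ACHP against PBS, as with DESeq2. In a fit of only the 6 libraries compared, 493 genes were called for TNF with ACHP against PBS. The test of any difference called 732, 894, 949 and 814 genes with the covariate of 28 markers, the neural term, the covariate of 26 and the stricter threshold.

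Directions reversed for TNF with ACHP against TNF, where the neural transcripts and the groups nearly coincide. With the covariate of 28 markers, the neural term and the covariate of 26, Scnn1g was at 0.45, 0.30 and 0.11 and Nr3c2 at 0.57, 0.33 and 0.11. With the covariate of 28 markers Hsd11b2 was at 0.13, Atp1b2 at 0.63, Aqp4 at 0.046, Calb1 at 0.54, Kcnj10 at 1.12, Slc8a1 at 0.22, Krt20 at 0.16 and Rgs5 at 0.74. With the neural term Kcnj10 was at 0.012. Leaving out libraries moved Nr3c2 between -0.29 and 0.095 in that comparison. It moved the log2 ratio of Scnn1g to Scnn1a between -0.022 and 0.25 (TNF against PBS), of Scnn1g to Scnn1b between -0.29 and 0.016 (TNF with ACHP against PBS) and of Hsd11b2 to Nr3c2 between -0.27 and 0.16 (TNF with ACHP against TNF). The cause was not tested.

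Deviations of same-numbered libraries from their group means correlated at -0.18 to 0.16 (1 of 9 above 0.1). Those of differently numbered libraries correlated at -0.23 to 0.24 (2 of 18 above 0.1). Deviations from means of 3 libraries cannot decide it, so whether the numbers pair the samples is not known. With the replicate number as a block, 945 genes were called with TNF in place of 917, and no call of the 9 genes changed. With 45 to 189 counts per library, Scnn1b, Scnn1g, Nr3c2 and Hsd11b2 are the least precise.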

Other observations

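Genes listed as markers of other nephron segments that passed the test with TNF were lower. So were those of fibroblasts and pericytes and the 1 of urothelium. With TNF 3.31% of all genes rose and 2.91% fell. Of 15 distal convoluted and connecting tubule markers tested, 0 rose and 4 fell, led by Wnk4 (-0.53) and Kcnj16, a potassium channel (-0.42, edgeR adjusted p = 3.7e-05). The count was 2 without PBS replicate 2 or 3 or any single TNF library. Of 12 genes tested that were listed for the thick ascending limb, 0 rose and 2 fell, Cldn19 (-0.43) and Tfap2a (-0.33). The count was 1 without PBS replicate 2 or TNF replicate 2 or 3. Of 10 proximal tubule markers 0 rose and 3 fell, among them Ggt1, a brush border enzyme (-0.57, edgeR adjusted p = 5.0e-05), while 16 of 26 were too low to test. Of 4 intercalated cell markers 1 fell, Car12 (-0.49), and lost the call without PBS replicate 2 or any single TNF library (-0.52 to -0.37). Of 22 transcription factors and signals of the collecting duct and its embryonic precursor, the ureteric bud, 0 rose and 5 fell, among them Lhx1 (-0.37) and Pax2 (-0.28). Of 15 fibroblast and pericyte markers 0 rose and 3 fell, led by the collagen gene Col1a1 (-0.39, edgeR adjusted p = 9.6e-06), and their sum was 992 to 1106 CPM for PBS and 896 to 921 CPM for TNF. Of 7 urothelium markers 0 rose and 1 fell, Psca (-1.04). With PBS replicate 1 as the only PBS library these counts were 1 and 0.

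The gene for the thiazide-sensitive salt transporter, Slc12a3, was not called for TNF against PBS or for both agents against TNF alone. It was called for both agents against PBS, at 2.13 ± 0.17 CPM for PBS and 0.57 ± 0.28 CPM for both agents together (SD, n = 3). It fell by 1.86 on the log2 scale (edgeR adjusted p = 0.0042) and was also lower with PBS replicate 1 as the only PBS library (-1.99, edgeR adjusted p = 0.038). Calb1 and Kcnj10 of the same list differed by -2.14 and -1.67, and by -0.70 and -0.56 without a call when PBS replicate 1 stood alone.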
